A study of Rattus norvegicus with 200 samples.

Results

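The comparison is of dark feeding with food always present in rats on chow during the dark phase, the part of the day in which rats normally eat. The samples were all libraries of the series labelled as chow with dark feeding or as chow with food always present, and taken at Zeitgeber time (ZT) 14, 18 or 22. ZT counts hours from lights on, so these times span the dark phase. This gave 33 of 200 libraries, 17 from ad libitum and 16 from dark-feeding rats, with 5 or 6 libraries per schedule and time. All came from brains of adult male wild-type Wistar rats, an outbred stock, and are labelled as isolated microglia. The whole series crosses chow or a high-fat diet (HFD) with ad libitum, dark or light feeding at 6 times of day. Whether each library is a rat of its own is not stated in the labels, and the p-values therefore reflect only how these libraries vary, which may be technical.

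Microglia are the resident macrophages of the brain, which clear debris and respond to injury and metabolic signals. Most cells keep a molecular clock in which BMAL1 and CLOCK (or NPAS2) drive the Per, Cry and Nr1d genes, whose products then repress that drive. Meal timing is a known time cue for such clocks in peripheral tissues, and restricting food to the dark phase keeps a nocturnal animal's meals at their usual time.

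The label of the cells was checked against marker genes. Per length, the microglial markers had a median of 25.2 FPKM over 24 of 25 listed genes found in the table, and P2ry12, a purinergic receptor that marks homeostatic microglia, ranged from 35.7 to 116 FPKM. Markers of other cells were also high, with medians of 196 FPKM for oligodendrocytes, 77.3 for neurons, 112 for cerebellar neurons and 12.4 for astrocytes, so the libraries held RNA of several brain cell types. Total counts ran from 5.05 to 9.4 M (mega) under ad libitum feeding, with a median of 7.33 M. Under dark feeding they ran from 6.7 to 9.42 M, with a median of 7.79 M. The running number in the sample titles was uneven: it exceeded 100 in 8 of 17 ad libitum but 3 of 16 dark-feeding libraries, and at ZT22 in 5 of 6 ad libitum libraries. The labels do not explain this number. The haemoglobin gene Hba1 exceeded 1000 CPM (counts scaled to a common library total) in 3 libraries, all at ZT14, 1 from ad libitum and 2 from dark-feeding rats.

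No gene differed between the schedules over the 3 dark times in the quasi-likelihood test of edgeR with time as a factor. A gene was called where its Benjamini-Hochberg adjusted p was under 0.05, over all 14203 genes with a mean of at least 1 CPM. None passed (0%), and the lowest adjusted p was 0.337. At an unadjusted p under 0.05 there were 1211 genes (8.53%), of which 622 lay higher (4.38%) and 589 lower (4.15%) with dark feeding. DESeq2 called 1 gene, Pdgfra, on the same counts, limma with voom weights called 0 with 1698 genes at an unadjusted p under 0.05, and limma on FPKM values called 0 with 1305. In contrast, time of day was called for 1423 genes (10.0%) in the same 33 libraries, with 3881 (27.3%) at an unadjusted p under 0.05. That count rested in part on few libraries: it was 7 without the 3 libraries of high Hba1, 1 without ZT14 and 621 without ad libitum replicate 9, a ZT14 library.

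When the title number over 100 entered the model as a factor, an alternative chosen after the data were seen, edgeR called 7 genes for schedule. Vamp1, a synaptic vesicle protein, was higher (0.20). Lower were the collagen genes Col16a1 (-0.36), Col5a3 (-0.36) and Col9a3 (-0.36), the steroid-metabolising Cyp3a9 (-0.37), the ephrin gene Efna1 (-0.28) and LOC500475 (-0.35), with adjusted p-values from 0.00644 to 0.0475. Among libraries with a number up to 100 alone, Col9a3 was the single call (-0.38, adjusted p = 0.00154). That subset lacks 5 of 6 ad libitum libraries at ZT22 and 3 of 5 at ZT14. Fits without the split that each left out 1 library gave adjusted p-values from 0.413 to 0.749 for Col9a3. They ran from 0.64 to 0.869 for Vamp1 and from 0.177 to 0.604 for Col5a3.

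Averaged over the dark times, the schedule differences were small and fairly well bounded. The values in this paragraph bound that average only, and not the difference at each single time. Differences of opposite sign at single times can cancel in the average, as for Ryr3, which is described below. A log2 fold change here is dark feeding minus ad libitum, and its median standard error was 0.08. The 95% interval lay within 1.5-fold in either direction for 13288 genes (93.6%) and within 2-fold for 14066 (99.0%). Only 44 genes had an estimate of 1.5-fold or more, and 8 of those had an unadjusted p under 0.05. The median log2 fold change of all genes was 0.00, and 49.8% of genes lay higher with dark feeding.

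Pdgfra, the receptor for platelet-derived growth factor that marks oligodendrocyte precursor cells, had the lowest p of all genes. It ranged from 76.2 to 136 CPM with a median of 101 in the 17 ad libitum libraries, and from 63.5 to 102 CPM with a median of 78.9 in the 16 dark-feeding libraries. The ranges overlapped over the 3 times together but not at ZT22. At ZT22 the 6 ad libitum libraries held from 98.1 to 131 CPM with a median of 110, and the 5 dark-feeding libraries held 63.5, 71.9, 76.7, 79.0 and 91.3 CPM, all lower than any ad libitum library. Ranges did not overlap for 0.929% of all genes at ZT22. Pdgfra was named for its low p in these libraries, so its separate ranges are a description only. The log2 fold change was -0.32 ± 0.07 (SE) over the 3 times (edgeR adjusted p = 0.337), and was -0.15 at ZT14, -0.26 at ZT18 and -0.54 at ZT22 (adjusted p = 0.172). Over the alternative settings its adjusted p ran from 0.0258, by DESeq2, to 1 for the 3 times together, and from 0.00803, also by DESeq2, to 0.532 at ZT22.

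Slc12a2, which encodes the sodium-potassium-chloride cotransporter NKCC1, followed the same order over time. Ad libitum libraries ranged from 471 to 701 CPM (median 533) and dark-feeding libraries from 395 to 552 CPM (median 461). At ZT22 the dark-feeding libraries held 395, 447, 448, 481 and 511 CPM, all below the ad libitum range of 523 to 701 CPM. Slc12a2 too was named for a low p in these libraries, so this is a description only, where 0.929% of all genes had separate ranges. The log2 fold change was -0.22 ± 0.05 over the 3 times (adjusted p = 0.358) and -0.39 at ZT22 (adjusted p = 0.172 by edgeR and 0.00803 by DESeq2). Without ad libitum replicate 5, a ZT18 library, edgeR called 2 genes at ZT22, Pdgfra (adjusted p = 0.032) and Slc12a2 (adjusted p = 0.0499), while the highest adjusted p of either without 1 library was 0.678.

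Gldc, the glycine decarboxylase of the mitochondrial glycine cleavage system, lay higher with dark feeding. It ranged from 19.6 to 32.2 CPM (median 25.4) under ad libitum and from 24.7 to 36.7 CPM (median 29.1) under dark feeding. At ZT18 all 6 dark-feeding libraries, from 28 to 31.8 CPM, lay above the ad libitum range of 19.6 to 26.2 CPM. Ranges did not overlap for 1.15% of all genes at ZT18, and Gldc was named for its low p in these libraries. The log2 fold change over the 3 times was 0.24 ± 0.05 (adjusted p = 0.358).

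Npy, which encodes the neuropeptide Y, had the largest difference among the genes named by p. It ranged from 3.12 to 18.6 CPM (median 8.41) with food always present and from 4.49 to 22.5 CPM (median 13) with dark feeding, so the ranges overlapped widely. At ZT14 the dark-feeding libraries held 12.6, 20.6, 20.8, 22.4 and 22.5 CPM and the ad libitum libraries 5.76, 7.53, 8.59, 14.5 and 18.6 CPM. Its log2 fold change was 0.63 ± 0.17 (adjusted p = 0.358), with 0.83 at ZT14, 0.28 at ZT18 and 0.80 at ZT22.

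**Figure D1:**
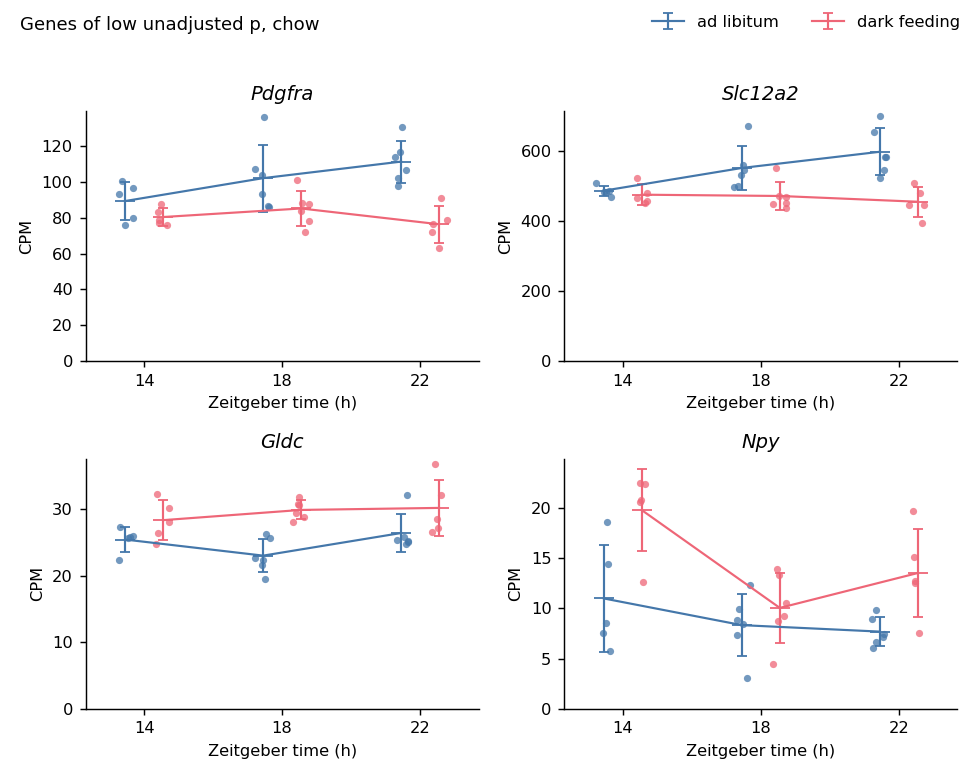
CPM of Pdgfra, Slc12a2, Gldc and Npy against Zeitgeber time in hours, 1 point per library, with the mean and SD of each schedule joined by lines. The dark-feeding points of Pdgfra and Slc12a2 at ZT22, and the ad libitum points of Gldc at ZT18, lie below every point of the other schedule.

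By the naming rule, 12 genes in each direction were taken in order of unadjusted p among those with the same sign at all 3 times, so their size is a description and not a result of a test. Among the others on the higher side are Begain and Rimbp2 (synaptic scaffold proteins), Baiap3 (a Munc13-like secretion factor), Dbn1 (drebrin, of dendritic spines), Camkv, Coro6, Osbpl5, Hs3st4 and Disp3, with log2 fold changes from 0.20 for Disp3 to 0.44 for Hs3st4. The others on the lower side are Susd5, Acer3 (an alkaline ceramidase), Col5a3 (a collagen V chain), Trim59, Pls1 (plastin 1), Zfp280d, Serinc5, Neo1 (the netrin receptor neogenin), Cast (calpastatin) and Stard13, from -0.13 for Neo1 to -0.41 for Susd5. Adjusted p-values of the 24 genes lay between 0.337 and 0.39. With the means of oligodendrocyte, neuron, astrocyte and mural cell markers as covariates, the log2 fold change shrank by over 1.5 times in 18 of the 24. It went, for example, from 0.43 to 0.15 in Baiap3, from 0.29 to 0.10 in Begain and from -0.20 to -0.08 in Serinc5. For Pdgfra it was -0.25 in that fit. It shrank that much in 7 of the 24 with the title number as a spline and in 1 with its split at 100. The 24 were chosen by p without covariates, and the share of all genes that shrank was not computed. The cause was not tested.

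These 24 genes were then read in 2 sets of libraries that share none with the comparison above. In the light phase on chow (17 libraries per schedule at ZT2, ZT6 and ZT10), 9 of 24 had the same sign, where 54.8% of all genes did, and 55.4% of those with an unadjusted p under 0.05 on chow in the dark. Only Col5a3 had an unadjusted p under 0.05 there, at a log2 fold change of 0.23 against -0.30 in the dark phase. In the dark phase on the high-fat diet (18 ad libitum and 16 dark-feeding libraries), 21 of 24 had the same sign, where 57% of all genes did, and 71% of those with an unadjusted p under 0.05 on chow. Gldc, Disp3, Acer3, Pls1, Serinc5 and Stard13 had an unadjusted p under 0.05 with the same sign there, 6 of 24, and 0 of 24 had one with the opposite sign. Of all genes, 21.0% had such a p there with either sign. The share of all genes with such a p and the same sign as on chow was not computed. Of the 24, 1 was called, near the 4.57% of all genes called there: Pls1 fell in the high-fat libraries, with a log2 fold change of -0.31 ± 0.08 (adjusted p = 0.0175) against -0.25 ± 0.06 on chow. With marker means as covariates no gene was called on the high-fat diet by edgeR (0, with 983 at an unadjusted p under 0.05). Pdgfra did not share its sign: it stood at 0.13 in the light phase on chow and 0.11 in the dark phase on the high-fat diet.

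**Figure D2:**
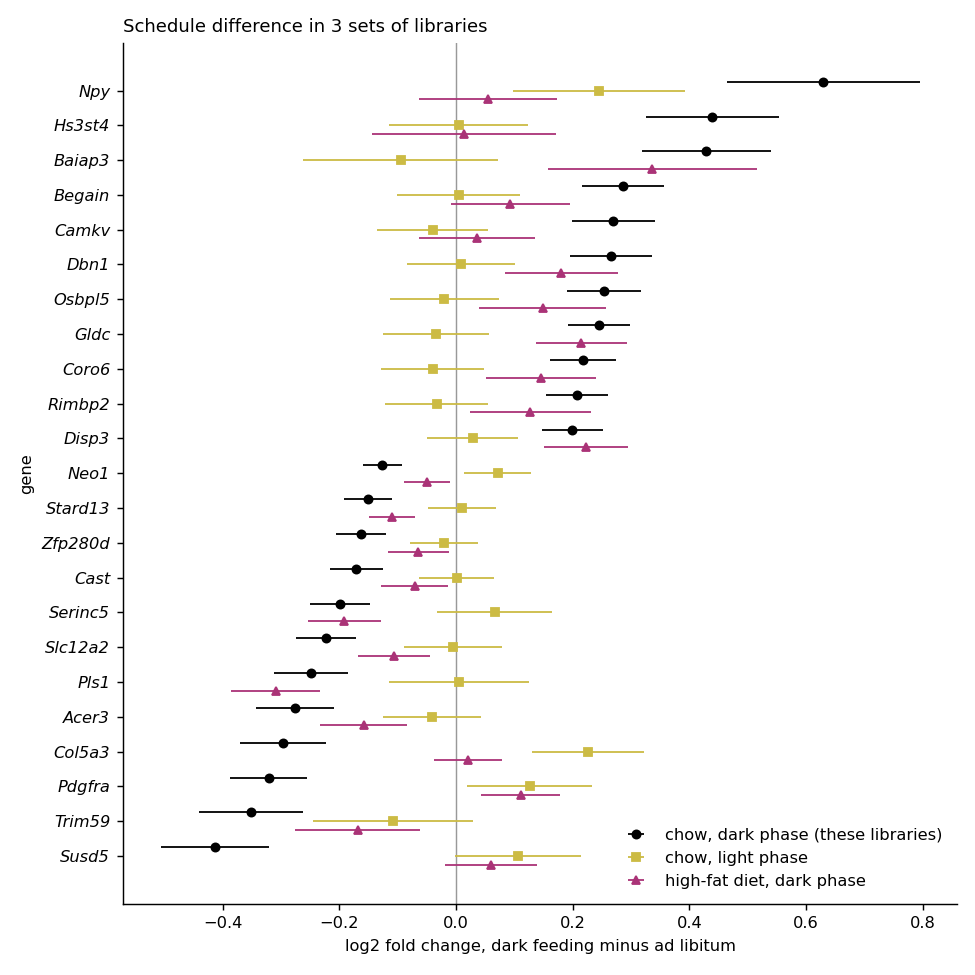
Log2 fold change, dark feeding minus ad libitum, with its standard error for the genes named by this rule and shown here, in these libraries (black circles), in the chow light phase (yellow squares) and on the high-fat diet in the dark phase (purple triangles). Most triangles lie on the same side of 0 as the circles, while the squares lie on both sides.

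Genes of the molecular clock were described next, by time of day and by schedule. To show the sequence context of 2 genes with opposite timing, the bases before their starts are printed from RefSeq (build GRCr8, which differs from the build of the counts, Rnor_6.0). Capitals mark the E-box CACGTG in Ciart, the letters that BMAL1 and CLOCK are known to bind, and the half-site AGGTCA (or TGACCT, its other strand) in Bmal1, which the files call Arntl; NR1D1 is known to bind this half-site. Each sequence is the 250 bases before the gene's start, Ciart on the minus strand at chr2:186112247-186112496 and Bmal1 on the plus strand at chr1:176766078-176766327.
Ciart: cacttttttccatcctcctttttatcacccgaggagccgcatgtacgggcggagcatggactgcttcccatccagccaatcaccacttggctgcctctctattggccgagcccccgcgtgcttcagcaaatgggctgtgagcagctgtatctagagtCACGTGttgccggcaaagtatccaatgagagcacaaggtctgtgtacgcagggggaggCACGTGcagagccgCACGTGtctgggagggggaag
Bmal1: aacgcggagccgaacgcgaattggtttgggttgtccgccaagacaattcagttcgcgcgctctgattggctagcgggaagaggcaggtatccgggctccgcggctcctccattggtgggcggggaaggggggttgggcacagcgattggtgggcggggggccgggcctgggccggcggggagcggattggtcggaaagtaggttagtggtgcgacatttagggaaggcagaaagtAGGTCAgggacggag
Ciart holds 3 E-boxes in this window, and the last 2 lie 35 and 21 bases before the start. Of 33469 promoter windows of this length, 5.59% hold CACGTG and 14.1% hold the half-site on either strand. Of 20 clock genes looked for, 17 had a promoter entry, 5 of them with the E-box and 2 with the half-site. These are matches of letters only.

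Dbp, a PAR bZIP output factor of the clock, fell through the dark phase under both schedules. Its ad libitum libraries held medians of 69.6, 55.5 and 34.9 CPM at ZT14, ZT18 and ZT22, and its dark-feeding libraries 94.9, 54.9 and 33.8 CPM. The change from ZT14 to ZT22 was -1.27 on the log2 scale (adjusted p = 1.34e-11). Ciart, a repressor of the clock, fell by the same amount (log2 change of -1.27, adjusted p = 1.9e-05), and Nr1d1, which encodes the haem receptor REV-ERB alpha, had a log2 change of -0.79 (adjusted p = 2.45e-05). Arntl, which encodes BMAL1, rose by 0.39 (adjusted p = 0.00459), but its call was lost with the title number as a spline (adjusted p = 0.142), without the 3 libraries of high Hba1 (0.125), without ZT14 (0.383) and without ZT22 (0.398). Without ZT14 the calls of Ciart (adjusted p = 0.334) and Nr1d1 (0.443) were lost too. Of 21 clock genes measured, 12 changed with time, 9 of them lower at ZT22 than at ZT14, against 10.0% of all genes. Under the alternative settings given in the closing section, between 1 and 13 of the 21 did so, and Dbp was called in each of them.

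None of the 21 clock genes was called between the schedules, where 0% of all genes were. In none did the ranges separate at any single time. They separated in 0.345%, 1.15% and 0.929% of all genes at ZT14, ZT18 and ZT22. At shares this low, these counts do not set the clock genes apart from other genes. Arntl averaged 27.35 ± 3.98 CPM (SD, n = 17) under ad libitum and 27.35 ± 5.15 CPM (SD, n = 16) under dark feeding, a log2 fold change of 0.00 with a 95% interval from -0.12 to 0.13. For Nr1d1 the log2 fold change was 0.01, with an interval from -0.14 to 0.17. For Per2 it was 0.10, from -0.16 to 0.36, and for Ciart -0.03, from -0.27 to 0.21. At an unadjusted p under 0.05 there were 2 of the 21, where there were 8.53% of all genes. Among them was Npas2, a partner of BMAL1, whose log2 fold change was 0.20 ± 0.08 (adjusted p = 0.483). The largest absolute value of the 21 was that of Npas2.

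The signs of the clock genes varied with time without passing a test. At ZT18, 17 of 21 lay higher with dark feeding, and at ZT22, 17 of 21 lay lower. Ciart at ZT22 held 8.23, 8.63, 9.53, 10.1 and 14 CPM in the dark-feeding libraries and from 9.52 to 22 CPM (median 13.5) in the ad libitum libraries, overlapping ranges with a log2 fold change of -0.50 (adjusted p = 0.411). Dbp at ZT14 held 84.6, 90, 94.9, 97.3 and 105 CPM under dark feeding and 67.7, 69.1, 69.6, 72.2 and 94 CPM under ad libitum. There 4 ad libitum libraries lay below all dark-feeding libraries and 1, replicate 9, lay among them, and the log2 fold change was 0.34 ± 0.11 (adjusted p = 0.675). Without that library, the log2 fold change of Dbp at ZT14 was 0.45 (adjusted p = 0.0406, between 0.0406 and 0.988 over the fits that each left out 1 library). The library left out held 1574 CPM of Hba1. Dark-feeding replicates 8 and 9 at ZT14 held more, at 1824 and 3394 CPM, and stayed in that fit. The lowest adjusted p of the interaction of schedule and time among the clock genes was 0.36.

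**Figure D3:**
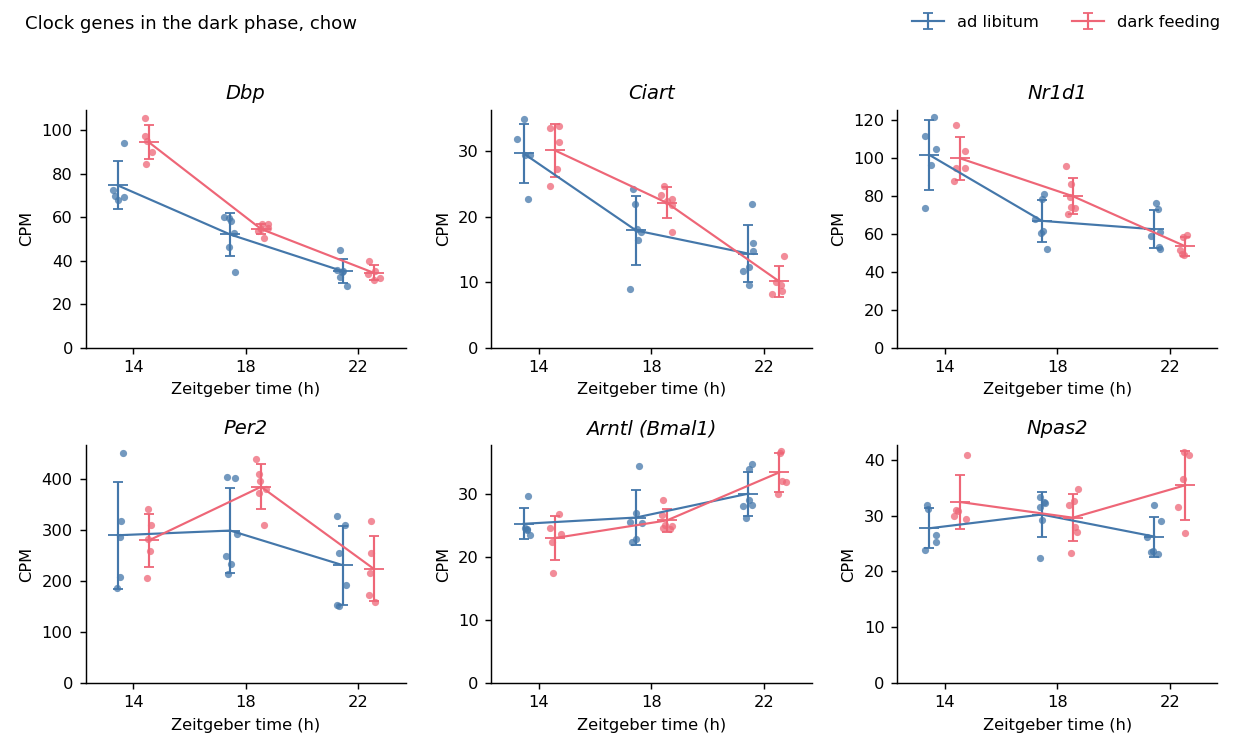
CPM of 6 clock genes against Zeitgeber time in hours, 1 point per library, with the mean and SD of each schedule joined by lines. Dbp, Ciart and Nr1d1 fall and Arntl rises from ZT14 to ZT22 under both schedules, and the points of the 2 schedules overlap at each time.

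At single times, too, edgeR called no gene. At ZT14 it called 0 (0%) with 1017 (7.16%) at an unadjusted p under 0.05, and DESeq2 called 0. At ZT18 it called 0 (0%) with 1686 (11.9%) unadjusted, and DESeq2 called 10. At ZT22 it called 0 (0%) with 1534 (10.8%) unadjusted, and DESeq2 called 2, Pdgfra and Slc12a2. The interaction of schedule and time was called for 0 genes (0%) by edgeR, with 1782 (12.5%) unadjusted, and for 2 by DESeq2, Ryr3 and Phlda3. The CPM ranges of the schedules did not overlap for 49 genes at ZT14 (0.345%), 163 at ZT18 (1.15%) and 132 at ZT22 (0.929%).

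The ZT14 count rested on 1 library. Without ad libitum replicate 9, edgeR called 180 genes at ZT14, 172 higher and 8 lower with dark feeding, and 5 genes for schedule by time, namely Ryr3, Nrgn, Phlda3, Basp1 and RGD1561849. These were 1.27% of all genes tested. They held 14 of 69 oxidative phosphorylation genes, 5 of 24 glycolysis genes, 4 of 73 ribosomal protein genes, 3 of 11 cerebellar neuron markers, 2 of 17 neuron markers and 1 of 15 astrocyte markers. Hpcal4, a neuronal calcium sensor, held 29.6, 30.0, 43.4, 50.5 and 65.0 CPM under ad libitum and 54.0, 56.8, 57.1, 76.1 and 82.9 CPM under dark feeding at ZT14, with a log2 fold change of 0.57 (adjusted p = 0.675). In the other 32 fits without 1 library the ZT14 count was 0. Ad libitum replicate 9 had title number 53, within the dark-feeding numbers of 49 to 69 at ZT14. At ZT14, 3 of the 5 ad libitum libraries and 0 of the 5 dark-feeding ones had a title number over 100. With that split as a factor and all libraries kept, edgeR called 0 genes there, 950 at an unadjusted p under 0.05. The fit of all libraries without the split also called 0. The split was not fitted without ad libitum replicate 9, so its part in the 180 calls was not tested.

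Serinc2, of the serine incorporator family, had the lowest adjusted p at any single time. At ZT18 its 6 dark-feeding libraries ran from 40.3 to 48.2 CPM, above the 6 ad libitum libraries at 30.1 to 38.0 CPM. The log2 fold change there was 0.41 ± 0.08 (adjusted p = 0.0932 by edgeR and 0.00239 by DESeq2), against -0.16 at ZT14 and 0.11 at ZT22. EdgeR called it at ZT18 without ad libitum replicate 3 (adjusted p = 0.0363) or replicate 4 (adjusted p = 0.048), both ZT18 libraries, and the highest over these fits was 0.443. Ryr3, a calcium release channel, lay apart at ZT18 as well, from 166 to 215 CPM under dark feeding and from 114 to 161 CPM under ad libitum, with a log2 fold change of 0.41 there and -0.35 at ZT14. Ranges did not overlap for 1.15% of all genes at ZT18. Serinc2 and Ryr3 were named for a low unadjusted p in these libraries, so their separate ranges are a description only.

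Gene lists were described by their counts and medians, beside 4.38% of all genes higher and 4.15% lower at an unadjusted p under 0.05 and a median of 0.00. Members of the oligodendrocyte lineage lay lower with dark feeding. Of 14 oligodendrocyte markers all had a negative log2 fold change, 6 at an unadjusted p under 0.05, with a median of -0.16. Opalin, a membrane protein of myelinating oligodendrocytes, stood at -0.22 and Aspa, aspartoacylase, at -0.21. Of 9 precursor markers all were negative, 4 at an unadjusted p under 0.05, with a median of -0.20. These 4 were Pdgfra, Gpr17 (a receptor of committed precursors, -0.39), Cspg4 (the NG2 proteoglycan, -0.25) and C1ql1 (-0.20), and none passed the adjusted test. In bulk RNA, fewer cells of a type and less RNA per cell cannot be told apart. The summed oligodendrocyte markers ran from 11440 to 22260 CPM under ad libitum and from 12210 to 19520 CPM under dark feeding. By time, the oligodendrocyte median was 0.11 at ZT14, -0.31 at ZT18 and -0.22 at ZT22. The precursor median was -0.03, -0.27 and -0.21. In the light phase on chow the medians of both lists were positive, at 0.07 and 0.12.

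Most homeostatic microglial markers also lay lower by log2 fold change, though their sum did not. Of 23 homeostatic markers tested, 20 were negative, 3 of them at an unadjusted p under 0.05, with a median of -0.11. The 3 were Tgfbr1, a receptor for TGF-beta (-0.20), P2ry13 (-0.29) and P2ry12 (-0.21). The median was -0.38 at ZT18, with 13 of 23 lower at an unadjusted p under 0.05 where 6.29% of all genes were, and was 0.08 at ZT14 and -0.01 at ZT22. Leaving out ZT18 turned the list's median to 0.03. The summed markers had a median of 2887 CPM under ad libitum and 2968 CPM under dark feeding. In other libraries the list's median was 0.09 in the light phase on chow and -0.11 on the high-fat diet in the dark phase. At ZT18 the 6 ad libitum libraries held from 87.9 to 110 CPM of Tgfbr1. The 6 dark-feeding libraries held from 57 to 87.1 CPM, without overlap, where 1.15% of all genes had none. Tgfbr1 was named for its low unadjusted p in these libraries. P2ry12 at ZT18 held from 65.3 to 104 CPM under ad libitum and from 42.6 to 77.4 CPM under dark feeding, and these ranges overlapped.

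Immune genes showed few differences. Of 20 NF-kB and cytokine genes, 3 lay lower at an unadjusted p under 0.05 and 0 higher, namely Il18 (an inflammasome cytokine, -0.26), Nlrp3 (the inflammasome sensor, -0.33) and Cd14 (a co-receptor for endotoxin, -0.34). All 10 class II antigen presentation genes were negative, from -0.24 to -0.04, with 0 at an unadjusted p under 0.05. The genes of the disease-associated microglial state split, with 13 of 23 positive, Spp1 (osteopontin) at 0.41 ± 0.15 and Gpnmb at -0.29 ± 0.08. Gpnmb ranged from 10.5 to 17.8 CPM under ad libitum and from 8.0 to 14.7 CPM under dark feeding (adjusted p = 0.39). Complement genes had a median of -0.04 and interferon response genes one of 0.15, with 0 members at an unadjusted p under 0.05 in either list.

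Genes of energy metabolism lay slightly higher. Of 24 glycolysis genes, 6 lay higher at an unadjusted p under 0.05 and 0 lower, with a median of 0.08. Aldoa, Gapdh and Eno1, 3 glycolytic enzymes named for a low unadjusted p in these libraries, had ranges that did not overlap at ZT22. Ranges did not overlap for 0.929% of all genes at ZT22, but those genes were not picked by p, so the 2 are not alike. Gapdh held 446, 454, 454, 475 and 481 CPM under dark feeding there and from 327 to 409 CPM under ad libitum, with a log2 fold change of 0.32 (adjusted p = 0.414). Of 69 oxidative phosphorylation genes, 64 were positive, 5 at an unadjusted p under 0.05, with a median of 0.12, and Cox8a, a cytochrome oxidase subunit, stood at 0.25 ± 0.10 (adjusted p = 0.483). Of 73 cytosolic ribosomal protein genes, 70 were positive but 0 had an unadjusted p under 0.05, with a median of 0.09. Time of day was called for 45 of 69 and 71 of 73 of their members, against 10.0% of all genes, and the calls over all genes fell to 7 without the 3 libraries of high Hba1. The medians of the 2 lists by schedule were 0.31 and 0.32 at ZT14, -0.09 and -0.13 at ZT18, and 0.18 and 0.14 at ZT22. The ribosomal median turned to -0.06 with the title number as a spline in the model.

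Lipid genes showed a small shift in sterol synthesis. Of 23 cholesterol synthesis genes, 19 were negative, with 5 lower and 0 higher at an unadjusted p under 0.05 and a median of -0.06. Fdft1, squalene synthase, averaged 156 ± 11.5 CPM (SD, n = 17) and 145 ± 9.04 CPM (SD, n = 16) in ad libitum and dark feeding, a log2 fold change of -0.11 ± 0.04 (adjusted p = 0.468). Cyp51, a demethylase of the sterol path, had separate ranges at ZT18 (108.6 to 125.2 CPM under dark feeding and 126.3 to 166.3 CPM under ad libitum) and at ZT22 (104.9 to 117.7 and 124.8 to 150.6 CPM). Ranges were separate for 1.15% and 0.929% of all genes at these times. Cyp51 was named for its low unadjusted p in these libraries, so its separate ranges are a description only. Fatty acid synthesis genes had a median of -0.03 and fatty acid oxidation and PPAR targets one of 0.06. Of 17 insulin and FOXO genes, Txnip, a glucose-responsive inhibitor of thioredoxin, lay lower at an unadjusted p under 0.05 (-0.18 ± 0.08, adjusted p = 0.55).

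Immediate early genes, which neuronal and glial activity induces, lay higher. Of 22 measured, 21 were positive, 2 at an unadjusted p under 0.05 and 0 lower, with a median of 0.19. Nr4a1, an orphan nuclear receptor, ranged from 30.4 to 119 CPM (median 59.9) under ad libitum and from 35.2 to 167 CPM (median 76.6) under dark feeding, with a log2 fold change of 0.39 ± 0.17 (adjusted p = 0.528). The list's median was -0.38 in the light phase on chow and 0.01 on the high-fat diet in the dark phase. Neuron markers had a median of 0.08, with 11 of 17 positive and 6 negative. At an unadjusted p under 0.05, 6 of 17 were higher and 0 lower. Among those higher were Camk2a (0.25) and the neurofilament genes Nefh (0.21) and Nefm (0.21). With marker means as covariates, neuron markers themselves included, the list's median was 0.004.

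Marker lists of other cell types are given by time as medians only, since no list was tested and the schedule by time test called no gene. The medians of astrocyte, meningeal fibroblast and mural cell markers were 0.44, 0.72 and 0.32 at ZT14, -0.31, -0.62 and -0.33 at ZT18, and 0.45, 0.50 and 0.50 at ZT22. The erythrocyte markers stood at 1.18 at ZT14. The cerebellar neuron markers stood at -0.17, 0.19 and -0.05 at the 3 times. Over the 37 lists, the median was above 0 in 30 lists at ZT14, below 0 in 30 at ZT18 and above 0 in 20 at ZT22. Summed astrocyte markers ran from 738.8 to 1765 CPM under ad libitum and from 672.5 to 1721 CPM under dark feeding, and summed fibroblast markers from 31.4 to 210 and from 37.1 to 242 CPM. Of the fibroblast markers Ogn was listed at 0 in all libraries. The part of these mixtures in the other lists' values was looked at only through marker means as covariates. These were the means of the oligodendrocyte, neuron, astrocyte and mural cell lists. The fibroblast, erythrocyte, cerebellar neuron, precursor and microglial lists were not among the covariates. With the covariates edgeR again called 0 genes over the 3 times, with 952 at an unadjusted p under 0.05. With them the median of the oligodendrocyte markers, themselves among the covariates, was -0.01, that of the precursor markers -0.06 and that of the homeostatic microglial markers -0.06.

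**Figure D4:**
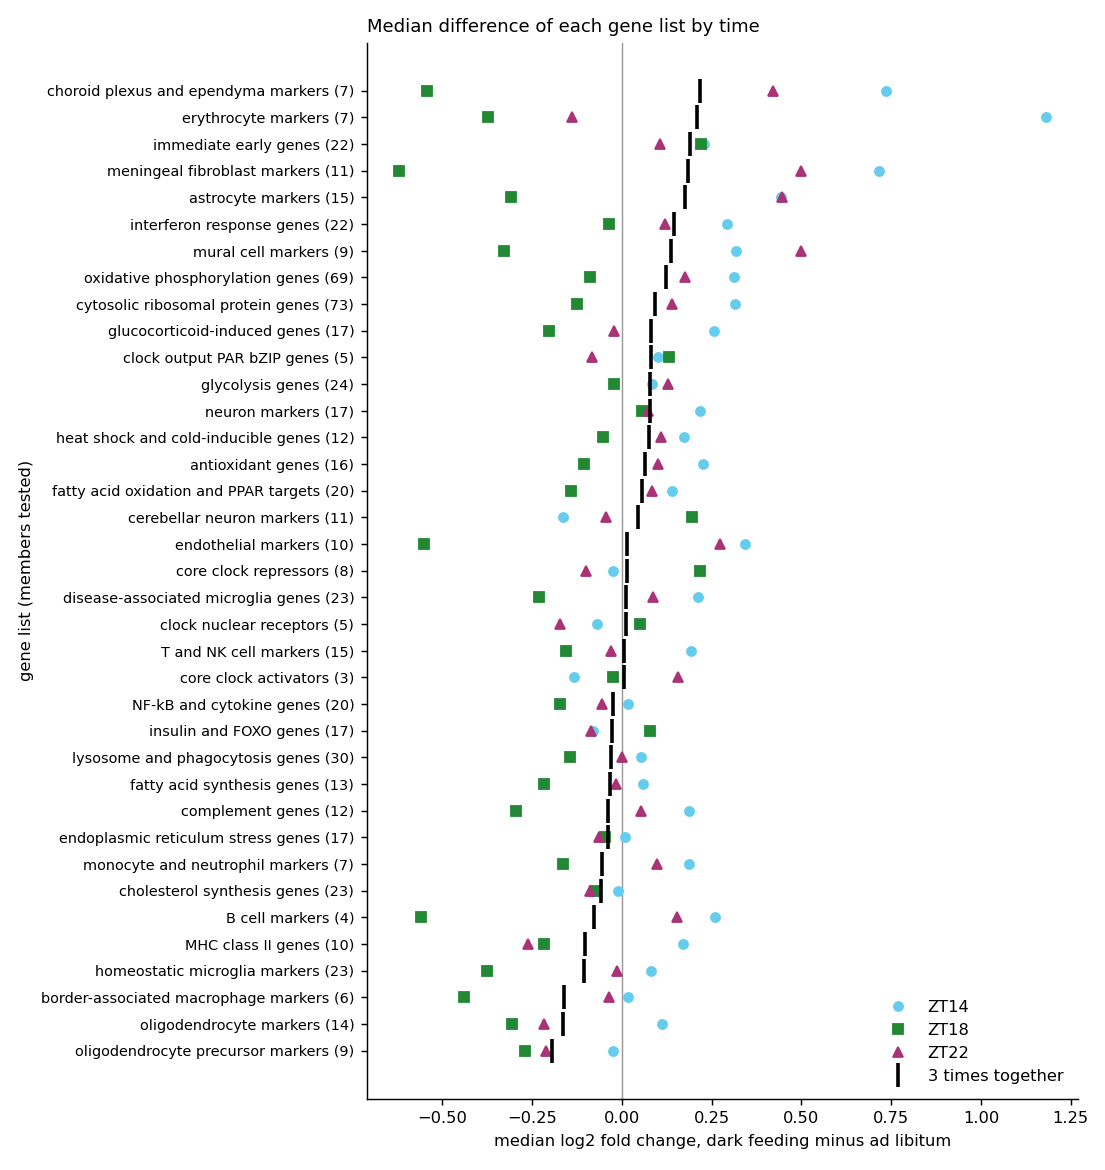
Median log2 fold change, dark feeding minus ad libitum, of each gene list at ZT14, ZT18 and ZT22 (coloured symbols) and over the 3 times (black bars), with the number of members tested in brackets. Vascular, fibroblast and astrocyte lists lie far right at ZT14 and ZT22 and far left at ZT18, whereas both oligodendrocyte lineage lists lie left of 0 at ZT18 and ZT22.

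The difference between dark feeding and ad libitum was not called as different between the phases of the day. The interaction of schedule and phase on chow gave 0 of 14214 genes (0%) by edgeR, with 1008 (7.09%) at an unadjusted p under 0.05, and 1 by DESeq2. In the light phase alone edgeR called 0 of 14228 genes (0%), with 1673 unadjusted, and DESeq2 called 1. Npas4, a neuronal activity factor, had a difference of 2.23 between the phases, with log2 fold changes of 0.43 in the dark and -1.80 in the light phase (adjusted p of the interaction = 0.458). Gpnmb and Col5a3 differed the other way, by -0.55 and -0.52 (adjusted p = 0.458 for each).

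Diet was compared in the dark phase. On the high-fat diet edgeR called 641 of 14021 genes (4.57%) for dark feeding against ad libitum, 349 higher and 292 lower, but 0 with the marker means as covariates. The test of the difference itself, the interaction of schedule and diet, called 1 of 14123 genes (0.00708%), with 1398 (9.90%) at an unadjusted p under 0.05. That gene, LOC100912380, which has no assigned symbol and is named for being the only call, had log2 fold changes of 0.07 ± 0.07 on chow and -0.53 ± 0.09 on the high-fat diet, a difference of 0.60 ± 0.11 (adjusted p = 0.0139). With the title number as a spline its call was lost (adjusted p = 0.995), and over the fits that each left out 1 chow library its adjusted p ran from 0.00826 to 0.0425. Pdgfra had the lowest p among genes whose difference was negative, with a difference of -0.43 ± 0.10 (adjusted p = 0.0548 by edgeR and 0.0231 by DESeq2). Without 1 chow library the adjusted p of Pdgfra ran from 0.042 to 0.115, and over the alternatives it reached 0.968. The sample titles run in a separate series for each diet, so diet and title series cannot be told apart.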

How the data were processed

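RNA of the labelled microglia was sequenced as strand-specific, bead-enriched mRNA on a DNA nanoball platform, per the labels' protocols. The authors deposited a table of counts per gene and a table of FPKM values. The count table that the authors deposited holds estimated counts, each an expected count of reads per gene without normalization. Of the entries used, 8.11% were not whole within 0.001, and all were rounded, where raw counts had been foreseen. The genome build was Rnor 6.0, per the submitters' processing notes, while which aligner and counter were used is not given in the sources used here.

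In all, the table held 20361 genes. Genes with a mean of at least 1 CPM were scaled by TMM and tested with edgeR 4.0.16 in R 4.3.3 by its quasi-likelihood test, with time as a factor and Benjamini-Hochberg adjustment over all genes tested at 0.05. DESeq2 1.42.0 and limma 3.58.1 (voom, and the deposited FPKM values as log2 of FPKM + 0.1) were alternatives, as were other scaling, filters and dispersion, the title number as a spline, marker means as covariates, times left out, wider fits and each library left out. The fits were tested on simulated data. No pair of the 33 libraries was identical over 528 pairs.

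The groups, gene lists and members were chosen with earlier results of these data known. Named genes were 12 per direction by unadjusted p with a mean of at least 5 CPM and the same sign at all 3 times, all clock genes, up to 4 members of each other list, and the leading genes of each interaction and time. Col9a3, Vamp1, Cyp3a9, Col16a1, Efna1, LOC500475 and LOC100912380 were named after their values were seen. Replicate numbers are names given in accession order. Promoter sequences came from RefSeq, build GRCr8. Counting error limits the low genes most. Some genes of the lists are not reported here by name, though the counts and medians include them.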

Additional observations from a re-analysis of the deposited data

Results flagged for a closer look

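Of 90 checks of the highest or lowest library within a schedule and time, 11 stood apart by Dixon's criterion, where chance gives about 1 in 20. Slc12a2 at ZT18 was 672.1 CPM in 1 ad libitum library, with the others at 498.5 to 562.6, and 552.4 CPM in 1 dark-feeding library. Gldc was 32.18 CPM in 1 ad libitum library at ZT22. Npy was low at 12.63 CPM in 1 dark-feeding library at ZT14. Among clock genes at ZT14, Dbp was 94.03 CPM and Arntl 29.67 CPM in 1 ad libitum library each, and Npas2 was 40.94 CPM in 1 dark-feeding library. The total count of dark-feeding replicate 8 at ZT14 was 8.87 M, with the others at 7.53 to 7.7 M. Hba1 was 1574 CPM in ad libitum replicate 9 at ZT14 and 889.8 CPM in ad libitum replicate 11 at ZT18. Snap25, a synaptic marker, was 414.3 CPM in 1 ad libitum library at ZT22.

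LOC100912380 differed in its schedule difference between the diets in the dark phase, by 0.60 on the log2 scale in edgeR's interaction test.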

How the results depend on the processing

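In all 17 alternatives, 6 of 21 clock genes and 10 of 37 list medians kept their sign for schedule. Of the list medians, 12 turned sign with the title number as a spline, 9 with its split at 100 and 8 with marker means. DESeq2 called 1 gene for schedule over the 3 times, 10 at ZT18, 2 at ZT22, 2 for schedule by time, 1 for schedule by phase, 28 for schedule by diet and 1 in the light phase. Its calls at ZT18 include genes with many counts of 0. Pdgfra, at -0.32, passed with DESeq2, and Col5a3, at -0.36, passed with the title split. The title spline gave 37 genes for time of day, 1 each at ZT14, at ZT18, for schedule by time and in the light phase, and 4 for schedule by diet. Marker means gave 493 for time of day, 1 at ZT14, 1 in the light phase, 34 for schedule by diet and 0 on the high-fat diet (983 at an unadjusted p under 0.05). No filter gave 2 for schedule by diet. Time of day gave 1 gene without ZT14 and 158 without ZT22. The alternatives chosen after the data were seen gave, for time of day, 2360 with the title split, 3272 with numbers up to 100 alone and 7 without the 3 libraries of high Hba1, and for schedule 7 with the split and 1 with numbers up to 100. Leaving out 1 library gave 0 to 0 calls for schedule and for schedule by phase, 0 to 180 at ZT14, 0 to 1 at ZT18, 0 to 2 at ZT22, 0 to 5 for schedule by time, 1 to 23 for schedule by diet (23 without ad libitum replicate 11, 7 without replicate 9) and 621 to 2344 for time of day (670 without dark-feeding replicate 9, 780 without replicate 8, 872 without replicate 10, 2344 without ad libitum replicate 23). The cause was not tested. No paired analysis was possible because replicate numbers are only names.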
